A study of Mus musculus with 13 samples.

Results

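The 10 histone deacetylase genes other than Hdac3 that belong to the classical zinc-dependent family (Hdac1, Hdac2, Hdac4 to Hdac11) were followed in mouse bone marrow-derived macrophages that had lost HDAC3. They were chosen by gene name among the non-control probes of a whole-genome Agilent array, where 17 of 41174 probes carry a member's name. Of the 10 genes, 8 passed the filter on dim probes and stand among the 20894 genes tested, while Hdac8 and Hdac11 did not pass. The comparison asks whether the RNA of another deacetylase is higher or lower when HDAC3 is missing, at rest or under IL-4, a cytokine that drives macrophages towards alternative activation.

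All cells were grown from marrow of male C57BL/6 mice aged 12 to 16 weeks in L929-conditioned medium, and all carried Hdac3 with exons 4 to 7 between loxP sites. The 4 groups were HDAC3 KO cells given 10 ng/mL IL-4 (n = 3 arrays), control cells given the same IL-4 (n = 3), HDAC3 KO cells given vehicle, 0.1% bovine serum albumin (n = 3), and control cells given vehicle (n = 4), each for 24 hours. KO cells also expressed Cre from the lysozyme M promoter, which is active in myeloid cells, and the labels name no Cre in control cells, so Cre and the loss of HDAC3 cannot be told apart. Nothing in the labels ties the arrays of a group to different mice or dishes, and the p-values therefore rest on a spread that could be technical.

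Histone deacetylases remove acetyl groups from lysines of histones and other proteins. The class I enzymes HDAC1, HDAC2 and HDAC3 are the catalytic subunits of nuclear corepressor complexes: HDAC1 and HDAC2 work as a pair in Sin3, NuRD and CoREST, and HDAC3 works with the corepressors NCoR and SMRT. The class IIa proteins HDAC4, HDAC5, HDAC7 and HDAC9 have little deacetylase activity of their own on acetylated histones. They bind MEF2 transcription factors, recruit the NCoR/SMRT-HDAC3 complex, and leave the nucleus when kinases phosphorylate them. HDAC6 and HDAC10 form class IIb, and HDAC11 alone is class IV.

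Levels are log2 signals relative to the 75th percentile of the same array, so that 0 is that percentile and a difference of 1 is a 2-fold difference. Probes differ in brightness, so a level is compared only with the level of the same probe on other arrays. In bulk RNA, fewer cells of a type and less RNA per cell cannot be told apart. All 10 macrophage markers examined were well above background on all 13 arrays. Their summed linear signal, in units of the 75th percentile, ran from 459 to 489 in KO IL-4, 410 to 435 in control IL-4, 496 to 515 in KO vehicle and 504 to 559 in control vehicle arrays. Of the 8 neutrophil markers, 5 were well above background on all 13 arrays, as were 2 of the 5 dendritic cell markers. The neutrophil gene Elane and the dendritic cell gene Clec9a were not well above background on any array. The 8 neutrophil markers summed to 3.76 to 10.6 in KO IL-4, 3.69 to 11.0 in control IL-4, 3.05 to 6.42 in KO vehicle and 3.83 to 9.49 in control vehicle arrays. The 6 stromal markers summed to 4.19 to 6.04 over all arrays, and the T and NK, B, dendritic, mast cell and erythroid lists to at most 1.89 each. A sum is read only against the same list's sum in other groups. Markers themselves moved in both directions. Of the 10 macrophage markers, 5 rose and 1 fell after HDAC3 loss averaged over treatments, with Itgam at 1.63 and Fcgr1 at -0.68, and 1 rose and 4 fell with IL-4 averaged over genotypes, with Cebpa at 0.43 and Cd14 at -1.77 (log2, limma adjusted p = 1.37e-05, 0.00216, 0.0384 and 8.89e-07). Among all genes, 9.03% were called for that HDAC3 loss and 8.42% for that IL-4 response, so these markers were called more often. Of the other lists, Cd79b of B cells and Epor of erythroid cells fell by 0.75 and 0.66 after HDAC3 loss, and Csf3r of neutrophils was at 0.48 with IL-4 (limma adjusted p = 0.00403, 0.0193 and 0.0132). Each was the 1 called gene of its list, and these single genes do not stand for the lists. The median was 0.11 over 3 tested B cell markers and -0.05 over 3 erythroid markers after HDAC3 loss. With IL-4 it was 0.19 over 6 tested neutrophil markers. The part of marker levels in the results below was not tested. The share of spots well above background ran from 56.2% on control vehicle array 4 and 61.1% on KO IL-4 array 15 to 83.2%, and the Hdac3, Hdac4 and Hdac6 fold changes, whose probes were dim on 1 or both, are also given without these arrays.

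The array reads most members through 1 or 2 probes and Hdac9 through 4, and for Hdac9 the choice of probe decided the result. The first 30 of the 60 bases of each Hdac9 probe are therefore shown, followed by those of Hdac1, the other member for which a change was called under some settings. Positions are those the files give, in the mm9 build.
Hdac9 bright upstream probe, chr12:35056507-35056566, minus strand: cctggaaccagtaaaaagaaaagctggaca
Hdac9 dim upstream probe, chr12:35074257-35074316, minus strand: ttacaccctcagtctcctttggcaacaaaa
Hdac9 bright downstream probe, chr12:34735842-34735901, minus strand: gtgatgccactgaattcccaggtcttagaa
Hdac9 dim downstream probe, chr12:34732447-34732478, minus strand: gggttacaaagtgacagcaaaatgcaagtt
Hdac1 probe, chr4:129193507-129193578, minus strand: tttttaggaggggtctgggtcttttcaggc
Hdac9 lies on the minus strand, so the 2 probes with higher coordinates are nearer to its 5′ end. The bright upstream probe is 320.7 kb from the bright downstream one. Both upstream probes carry the same RefSeq transcript in the array's annotation, and both downstream probes carry another, cDNA-derived transcript. Hdac9 is known to give a long transcript that encodes the catalytic domain and a short one, also called MITR or HDRP, that ends before it. Which of these each probe reports is not stated in the files. The Hdac1 probe's annotation also lists a transcript model of a processed Hdac1 pseudogene, so a share of its signal could come from there.

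Hdac3 itself checks the labels. Its level was -3.22, -3.42 and -4.09 on KO IL-4 arrays, against -1.95, -2.34 and -1.85 on control IL-4 arrays. In vehicle it was -3.71, -3.16 and -3.51 on KO arrays, against -1.75, -2.18, -2.05 and -2.21 on control arrays. The genotypes did not overlap in either condition. Averaged over treatments the log2 fold change was -1.47 (95% interval -1.82 to -1.12, limma adjusted p = 0.000141), which leaves 36.1% of the signal. Without the 2 arrays with fewest spots above background it was -1.37 (adjusted p = 0.000483, limma), and with normexp background correction followed by quantile normalization it was -0.63. Where the probe lies relative to the floxed exons was not determined here.

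None of the 8 tested deacetylases was called higher or lower after HDAC3 loss, in vehicle, under IL-4 or averaged over treatments (limma, adjusted p of at least 0.338, 0.244 and 0.162). Among all genes, 4.69% were called in vehicle, 3.59% under IL-4 and 9.03% averaged over treatments. At an unadjusted p under 0.05, 1 of the 8 members passed in each comparison (Hdac7 in vehicle, Hdac1 under IL-4 and averaged), against 13.6%, 14.9% and 19.5% of all genes. The members' median absolute log2 fold change was 0.10 in vehicle and 0.25 under IL-4, beside 0.14 and 0.18 over all genes. Averaged over treatments, the members' fold changes ran from -0.14 for Hdac1 to 0.14 for Hdac10, and the 95% intervals of all 8 lay between -0.89 and 0.62. Within the fit, a rise of any of the 8 above 1.53-fold on that average therefore lies outside its interval. This bound does not hold for a single condition, where intervals of the brightest probes reached 2.96-fold for Hdac6 in vehicle and 1.65-fold for Hdac2 under IL-4. With every probe fitted on its own, upper limits under IL-4 were higher on other probes. They were 0.76 on the log2 scale for the second Hdac2 probe and 1.12 for the dim downstream Hdac9 probe. The latter passed the filter only through the KO IL-4 arrays. Opposite differences also cancel in the average, as for Hdac4 (0.33 in vehicle, -0.38 under IL-4) and Hdac6 (0.53 and -0.81). No member was called in any of the 3 comparisons without control vehicle array 4 and KO IL-4 array 15.

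**Figure D1:**
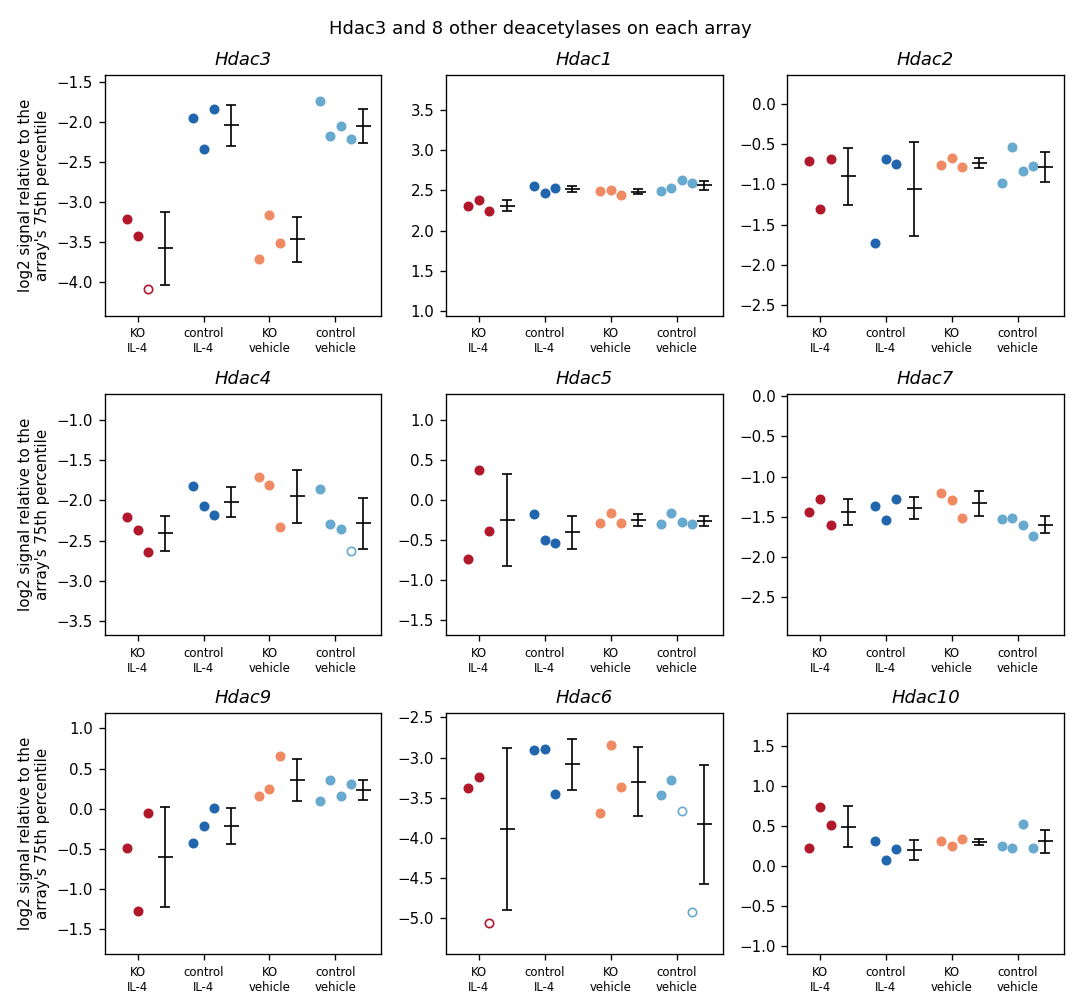
Levels of Hdac3 and the 8 tested deacetylases on each of the 13 arrays, as log2 signal relative to the array's 75th percentile, for the 4 groups. Each point is an array (open where the probe was not well above background), the black mark is the group mean and its bar the SD, and every panel spans 3 log2 units. Hdac3 separates KO from control arrays in both conditions. Of the other genes, KO and control arrays do not overlap for Hdac7 in vehicle and for Hdac1 and Hdac4 under IL-4. The same is true of 16.8% and 17.8% of all genes.

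**Figure D2:**
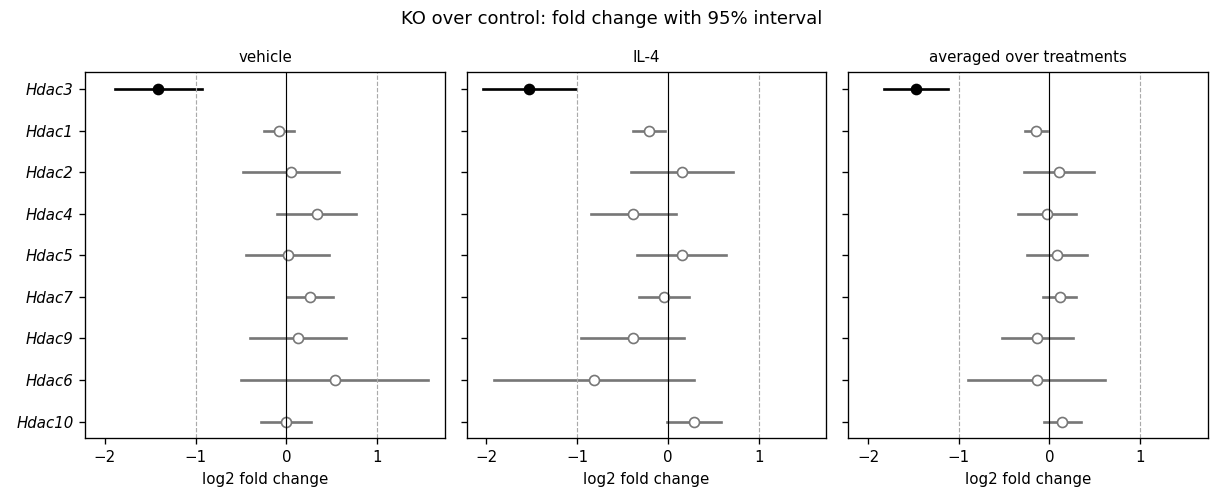
Log2 fold changes of KO over control (points) with 95% intervals (lines) in vehicle, under IL-4 and averaged over treatments, with dashed lines at 2-fold. Filled black points passed an adjusted p of 0.05 (limma), which only Hdac3 did. The widest intervals are those of Hdac6.

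Among class I genes, Hdac1, a catalytic subunit of the Sin3, NuRD and CoREST complexes, had the smallest standard error of the 8 tested members. Under IL-4 its level was 2.30, 2.38 and 2.25 on KO arrays, against 2.55, 2.47 and 2.53 on control arrays. Every KO array was below every control array. Under IL-4 the genotypes did not overlap for 2 of 8 members, Hdac1 and Hdac4, and for 17.8% of all genes. The log2 fold change was -0.21 (95% interval -0.39 to -0.03, limma unadjusted p = 0.0262, adjusted p = 0.244), so 86.5% of the control signal was left. In vehicle the level was 2.49, 2.51 and 2.45 on KO arrays, against 2.49, 2.53, 2.63 and 2.59 on control arrays, and the groups overlapped (log2 fold change -0.08, 95% interval -0.25 to 0.09). Averaged over treatments Hdac1 was at -0.14 (95% interval -0.27 to -0.02), with an adjusted p of 0.162 (limma). This value passed the threshold under 4 of 26 other settings, with fold changes of -0.17 and adjusted p = 0.0400 after quantile normalization, -0.17 and 0.0347 after normexp with quantile normalization, -0.17 and 0.0411 with the authors' deposited values, and -0.16 and 0.0385 with array weights (limma). These settings overlap: quantile normalization entered 2 of them, and the authors' values had nearly equal array medians and gave nearly the same fold change. Within slides, all 3 vehicle differences (-0.18 to -0.01) and both IL-4 differences (-0.25 and -0.09) were negative.

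Hdac2, the partner of HDAC1 in these complexes, had 2 probes with parallel patterns. On the brighter one the level was -0.71, -1.31 and -0.69 on KO IL-4 arrays and -1.73, -0.69 and -0.74 on control IL-4 arrays. In vehicle it was -0.76, -0.67 and -0.78 on KO arrays, against -0.99, -0.54, -0.83 and -0.77 on control arrays. KO IL-4 array 14 and control IL-4 array 9 stood low, and they were also the lowest of their groups on the second probe, at -2.73 and -3.21. On the brighter probe the fold change of KO over control was 0.05 in vehicle (95% interval -0.48 to 0.58) and 0.15 under IL-4 (-0.41 to 0.72). The second Hdac2 probe gave 0.23 in vehicle, 0.26 under IL-4 and 0.25 averaged over treatments (95% interval -0.10 to 0.59), and was not called. Hdac8, a class I enzyme that acts outside these complexes, was well above background on 2 of 13 arrays with one probe and on 1 with the other. Without the filter its fold change was 0.47 averaged over treatments (SE 0.410, limma adjusted p = 0.745), a value taken mostly below background.

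In class IIa, no gene was called for HDAC3 loss. On the bright upstream Hdac9 probe the fold change was 0.12 in vehicle (95% interval -0.41 to 0.65) and -0.39 under IL-4 (-0.96 to 0.18). The bright downstream probe gave 0.10 and -0.20, and the dim downstream probe -0.11 and 0.55 (-0.01 to 1.12 under IL-4). Neither downstream probe was called, and their signs differ under IL-4. The dim one passed the filter only through KO IL-4, the group where it was highest. Hdac4, a MEF2-binding corepressor, was at -2.21, -2.37 and -2.64 on KO IL-4 arrays, below all of the control IL-4 arrays at -1.82, -2.07 and -2.18. In vehicle it was at -1.71, -1.80 and -2.33 on KO arrays and at -1.86, -2.30, -2.35 and -2.62 on control arrays, which overlap. The fold changes were -0.38 under IL-4 (95% interval -0.85 to 0.08) and 0.33 in vehicle (-0.10 to 0.77), neither of them called, and their average was -0.02. Without control vehicle array 4 and KO IL-4 array 15 they were -0.27 under IL-4 and 0.22 in vehicle. Within slides the IL-4 differences were -0.39 and -0.31 and the vehicle differences 0.03 to 0.49.

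Hdac7, a class IIa member with known roles in thymocytes and endothelium, was at -1.20, -1.29 and -1.51 on KO vehicle arrays, against -1.52, -1.51, -1.61 and -1.74 on control vehicle arrays. The groups did not overlap, though their nearest arrays were equal at the decimals printed. Hdac7 was 1 of 8 members with no overlap in vehicle, beside 16.8% of all genes. The fold change was 0.26 (95% interval 0.01 to 0.52, limma unadjusted p = 0.0431, adjusted p = 0.338). Under IL-4 it was -0.04 (-0.31 to 0.23), with -1.44, -1.27 and -1.60 on KO arrays and -1.36, -1.54 and -1.28 on control arrays. A second Hdac7 probe was well above background on 2 of 13 arrays and adds no test.

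Hdac5, the class IIa member best known from heart and muscle, was at -0.29, -0.16 and -0.29 on KO vehicle arrays, against -0.30, -0.17, -0.27 and -0.29 on control vehicle arrays, and its fold change there was 0.01 (95% interval -0.44 to 0.47). KO IL-4 arrays were more scattered, at -0.74, 0.38 and -0.39, against -0.17, -0.50 and -0.54 in control IL-4. KO IL-4 array 14 supplied the high value, and the same array had the highest Hdac10 level (0.73) and the lowest Hdac9 level (-1.27) of all 13. The Hdac5 probe is the only member probe with a polyadenylation hexamer, and bases 29 to 58 of its 60 are tttattttttctATTAAAaacaaaaagtca, with the hexamer in capitals. In the probe's own orientation, which alone was searched, 7.49% of all 41174 probes hold AATAAA or ATTAAA.

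In class IIb, Hdac6, the cytoplasmic deacetylase of tubulin, was dim and had the widest spread. Its level was -3.38, -3.25 and -5.05 on KO IL-4 arrays and -2.91, -2.89 and -3.45 on control IL-4 arrays. In vehicle it was -3.69, -2.84 and -3.37 on KO arrays, against -3.47, -3.28, -3.66 and -4.92 on control arrays. The 2 lowest values are those of KO IL-4 array 15 and control vehicle array 4, the arrays with the fewest spots well above background, and the probe itself was not well above background on them. The fold changes of KO over control were 0.53 in vehicle (95% interval -0.50 to 1.56) and -0.81 under IL-4 (-1.91 to 0.29), so a 2-fold difference in either direction lies within one interval or the other. Without these 2 arrays the fold changes were 0.17 in vehicle and -0.23 under IL-4 (limma adjusted p = 0.980 and 0.756). Hdac10, a deacetylase of polyamines, was at 0.23, 0.73 and 0.51 on KO IL-4 arrays, against 0.32, 0.07 and 0.22 on control IL-4 arrays (fold change 0.29, 95% interval -0.01 to 0.59). In vehicle its levels of 0.31, 0.25 and 0.33 on KO arrays lay among the control levels of 0.25, 0.23, 0.52 and 0.23 (fold change -0.01, -0.29 to 0.27). The second Hdac10 probe gave 0.23 under IL-4 and 0.03 in vehicle.

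Hdac11, the sole class IV enzyme, was not well above background on any of the 13 arrays. Its probe read -6.50, -6.25 and -5.28 in KO IL-4, -5.88, -6.16 and -6.25 in control IL-4, -6.16, -6.48 and -4.52 in KO vehicle, and -6.66, -6.81, -5.97 and -4.79 in control vehicle arrays. These values only bound its level, and no fold change is given against them.

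The response to IL-4 was examined in the same fit. None of the 8 members was called in KO cells (2.21% of all genes were) or in control cells (5.71% of all genes), with smallest adjusted p-values of 0.0982 and 0.465 (limma). At an unadjusted p under 0.05, 1 member passed in KO cells and 0 in control cells, against 12.4% and 14.6% of all genes. The groups did not overlap for 2 members in KO cells, Hdac1 and Hdac9, and for Hdac9 alone in control cells, against 18.6% and 16.6% of all genes. The interaction, which tests whether the IL-4 response differs between genotypes, called no member and 0.00479% of all genes. The Hdac4 response had the smallest p of the 8, at -0.46 in KO cells and 0.26 in control cells (interaction -0.72, 95% interval -1.36 to -0.08, limma unadjusted p = 0.0310, adjusted p = 0.9997), where 3.91% of all genes reached an unadjusted p under 0.05.

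**Figure D3:**
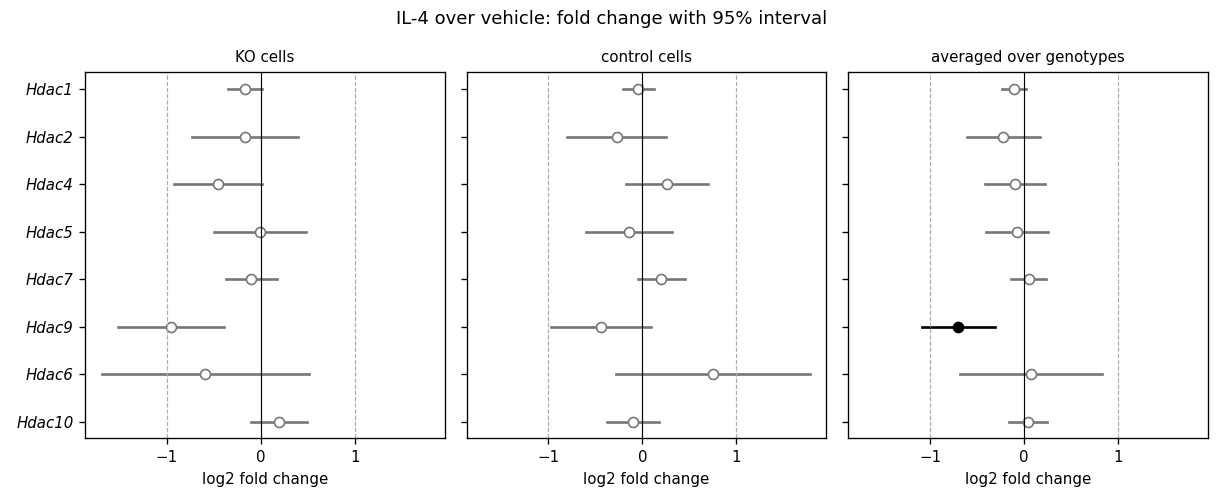
Log2 fold changes of IL-4 over vehicle (points) with 95% intervals (lines) in KO cells, in control cells and averaged over genotypes, with dashed lines at 2-fold. The filled black point of Hdac9 in the average is the one with an adjusted p under 0.05 (limma), in a comparison added after the values were seen.

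Hdac9, the class IIa member with the short MITR transcript, had the largest averaged IL-4 fold change of the 8, as read by its bright upstream probe. Its level was -0.48, -1.27 and -0.05 on KO IL-4 arrays, against 0.16, 0.25 and 0.65 on KO vehicle arrays. In control cells it was -0.43, -0.22 and 0.02 with IL-4, against 0.10, 0.36, 0.16 and 0.31 with vehicle. Every IL-4 array was below every vehicle array of its genotype, as it was for 3.87% of all genes in both genotypes. The fold change was -0.96 in KO cells (95% interval -1.52 to -0.39, limma unadjusted p = 0.00328, adjusted p = 0.0982) and -0.44 in control cells (-0.97 to 0.09, adjusted p = 0.465). Leaving out KO IL-4 array 14, the lowest, left a fold change of -0.62 in KO cells (limma adjusted p = 0.222), and leaving out array 15 gave -1.23 (limma adjusted p = 0.0274). The difference between these responses was -0.51 (95% interval -1.29 to 0.26). Within slides the IL-4 difference was negative in 3 of 3 slides in KO cells (-1.52 to -0.65) and in 3 of 3 in control cells (-0.58 to -0.30).

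Averaged over genotypes, a comparison added after these values were seen, IL-4 lowered the signal of this probe to 61.6% of vehicle (log2 fold change -0.70, 95% interval -1.09 to -0.31, limma adjusted p = 0.0298, where 8.42% of all genes were called). The call was kept in 18 of 26 other settings. It was lost without control vehicle array 2 (adjusted p = 0.0618, limma) or 4 (0.0558), KO vehicle array 6 (0.0534) or 7 (0.0834), and control IL-4 array 9 (0.0772) or 10 (0.0591). It was also lost with no filter on dim probes (adjusted p = 0.0548, limma) and with the mean over the gene's 3 kept probes in place of the brightest, at a fold change of -0.21 (limma adjusted p = 0.489). The other 2 kept probes were not called. The bright downstream probe averaged -1.22 ± 0.545 in KO IL-4 and -1.02 ± 0.196 in control IL-4, against -1.04 ± 0.285 in KO vehicle and -1.13 ± 0.338 in control vehicle arrays (SD, n = 3, 3, 3 and 4). Its averaged IL-4 fold change was -0.03 (95% interval -0.44 to 0.37), and that of the dim downstream probe 0.10 (-0.29 to 0.49). The dim downstream probe was at 0.43 in KO cells and -0.23 in control cells. It passed the filter only through KO IL-4, the group where it was highest, which favours a higher IL-4 value. No conclusion is therefore drawn from that probe, which also enters the mean over the 3 kept probes. The dim upstream probe was well above background on 1 array.

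The bright probes were then set against each other on the same array, which removes any factor that scales a whole array or the whole gene. The upstream probe minus the downstream probe was 0.44, 0.58 and 0.85 on KO IL-4 arrays, against 1.51, 1.24 and 1.43 on KO vehicle arrays, with no overlap. In control cells it was 0.49, 0.68 and 1.26 with IL-4, against 1.31, 1.03, 1.35 and 1.79 with vehicle, with 1 IL-4 array among the vehicle arrays. The IL-4 difference was -0.77 in KO cells and -0.56 in control cells, and their mean was -0.66. This contrast was chosen after the decrease on the upstream probe had been seen, so it is given as a description with no test, and it does not say which transcript changed.

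**Figure D4:**
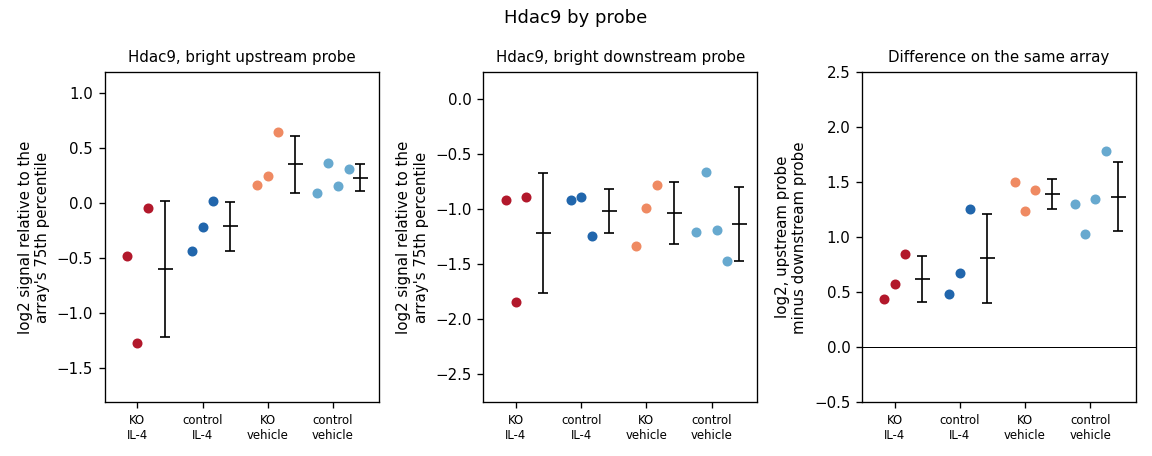
Hdac9 on each array by group: the bright upstream probe (left) and the bright downstream probe (middle) as log2 signal relative to the array's 75th percentile, and their difference on the same array (right). Points are arrays, black marks and bars are means and SDs. IL-4 arrays sit below vehicle arrays of the same genotype on the upstream probe and, apart from 1 control array, in the difference, but not on the downstream probe.

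The genes whose values were most like those of the bright upstream Hdac9 probe over the 13 arrays, after centring each gene on its own mean, were Scai, Rab3b and Inpp4b, with root mean square differences of 0.202, 0.205 and 0.206 log2 units. Their own averaged IL-4 fold changes of -0.48, -0.49 and -0.47 were not called. Their shared direction follows from choosing them by likeness over the same arrays and adds no support.

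Genes that work with the members were examined as lists. Of the 5 NCoR/SMRT subunits, the corepressor complex that class IIa proteins recruit, 1 rose and 0 fell after HDAC3 loss in vehicle, under IL-4 and averaged. Among all genes, 4.69%, 3.59% and 9.03% were called. At an unadjusted p under 0.05, 3, 2 and 3 of the 5 passed, beside 13.6%, 14.9% and 19.5% of all genes. The list's median averaged fold change was 0.23, beside -0.0093 over all genes. The gene that rose was Tbl1xr1, a WD40-repeat subunit that takes part in corepressor exchange. Its level was 2.91 ± 0.125 in KO IL-4 against 2.05 ± 0.287 in control IL-4, and 3.16 ± 0.121 in KO vehicle against 2.61 ± 0.0312 in control vehicle arrays (SD, n = 3, 3, 3 and 4). The averaged fold change was 0.70 (95% interval 0.50 to 0.91, limma adjusted p = 0.000515) and stayed called in all 26 alternatives, from 0.62 to 0.77. The fold changes were 0.86 under IL-4, lost in 1 of 27 alternatives, and 0.55 in vehicle, lost in 11 of 27 (limma adjusted p = 0.00462 and 0.0312). In control cells Tbl1xr1 fell by 0.56 on the log2 scale with IL-4 (limma adjusted p = 0.0224). That call was lost in 8 of 27 alternatives, among them the fits without control vehicle array 2, 3 or 4 or control IL-4 array 9.

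Of 15 measured Sin3 subunits, which share HDAC1 and HDAC2, 0 rose and 1 fell averaged over treatments, where 9.03% of all genes were called (median -0.05, beside -0.0093 over all genes). The gene that fell was Brms1l, at -0.38 (95% interval -0.54 to -0.22, limma adjusted p = 0.00597), called in all 26 alternatives. In vehicle alone it fell by 0.43 (limma adjusted p = 0.0316), a call lost in 12 of 27 alternatives, 7 of them fits without 1 array. Its level was -0.19 ± 0.0513 in KO IL-4 against 0.14 ± 0.0369 in control IL-4, and -0.12 ± 0.200 in KO vehicle against 0.31 ± 0.0738 in control vehicle arrays (SD). Of 8 NuRD subunits, 1 rose and 0 fell (median 0.07), the chromatin remodeller Chd4 at 0.30, a call lost in 4 of 26 alternatives, 1 of them the fit without KO vehicle array 6 (limma adjusted p = 0.0555). With the mean over its probes in place of the brightest, Chd4 was at 0.21 (limma adjusted p = 0.188). Of 11 CoREST and MiDAC genes, 0 rose and 1 fell (median -0.04), Phf21a at -0.26, which was not called in 17 of 26 alternatives, 11 of them fits without 1 array. With IL-4 in KO cells, Chd3 of NuRD fell by 0.50 and Zmym3, a CoREST-associated zinc-finger gene, fell by 0.52 on the log2 scale (limma adjusted p = 0.0251 and 0.0198), calls lost in 11 and 9 of 27 alternatives. The Chd3 call was lost without KO vehicle array 5, 6 or 7 or KO IL-4 array 14 or 15, and the Zmym3 call without KO vehicle array 5, 6 or 7 or KO IL-4 array 13 or 15. In control cells IL-4 called 0 genes of these 3 lists (limma), beside 5.71% of all genes. At an unadjusted p under 0.05 there were 1, 2 and 2, beside 14.6% of all genes.

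Of 6 sirtuins measured, the NAD-dependent deacetylases of class III, 1 rose and 0 fell averaged over treatments, beside 9.03% of all genes called (median 0.03, beside -0.0093 over all genes). Sirt3, a mitochondrial deacetylase, was at -0.54 ± 0.151 in KO IL-4 against -1.13 ± 0.00731 in control IL-4, and at -0.63 ± 0.197 in KO vehicle against -0.92 ± 0.152 in control vehicle arrays (SD). Its averaged fold change was 0.44 (95% interval 0.25 to 0.64, limma adjusted p = 0.00760), called in all 26 alternatives, and it was also called under IL-4 alone at 0.59 (limma adjusted p = 0.0259), a call lost in 9 of 27 alternatives, including each fit without control IL-4 array 9, 10 or 12 or KO IL-4 array 13 or 14.

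Of 15 measured kinases of families known to phosphorylate class IIa deacetylases, 0 rose and 4 fell with IL-4 in control cells, beside 5.71% of all genes called. The list's median was -0.14, beside -0.0035 over all genes. Camk1, a calcium/calmodulin-dependent kinase, was at -1.45 ± 0.0760 with IL-4 against -1.01 ± 0.0325 with vehicle (SD, n = 3 and 4), a fold change of -0.44 (limma adjusted p = 0.00419) lost in 1 of 27 alternatives. Sik1, a salt-inducible kinase, was at -1.85 ± 0.488 with IL-4 against -1.03 ± 0.0531 with vehicle, a fold change of -0.82 (limma adjusted p = 0.0203) lost in 4 of 27, among them the fits without control vehicle array 1 or 2 (adjusted p = 0.0532 and 0.0557). Camk1d fell by 0.61 and Camk2d by 0.31 (limma adjusted p = 0.0236 and 0.0416), calls lost in 8 and 17 of 27 alternatives. Leaving out 1 array ended the Camk1d call for 6 arrays (control vehicle 2, 3 and 4, and control IL-4 9, 10 and 12) and the Camk2d call for 11. In KO cells 0 of the 15 were called (limma), beside 2.21% of all genes, and 4 had an unadjusted p under 0.05, beside 12.4%. Their median there was -0.23, beside -0.06 over all genes. The interaction called none of the 15 (limma), beside 0.00479% of all genes. Averaged over genotypes, the comparison added after the values were seen, 0 rose and 4 fell, beside 8.42% of all genes called. The list's median was -0.06, beside -0.04 over all genes. Sik1 fell by 0.72 and Camk1d by 0.55 (limma adjusted p = 0.00488 and 0.00493), both called in all 26 alternatives. Camk1 fell by 0.38 and Camk2d by 0.27, calls lost in 1 and 2 of 26. After HDAC3 loss averaged over treatments, where 9.03% of all genes were called, Camk2d fell by 0.30 and Camk1 by 0.20 (limma adjusted p = 0.00606 and 0.0425). These calls were lost in 2 and 21 of 26 alternatives, the Camk1 call in 11 fits without 1 array. With the mean over its probes in place of the brightest, Camk2d was at only -0.09 (limma adjusted p = 0.630).

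Of 11 class IIa partner genes, the MEF2 factors and the phosphoserine-binding Ywha proteins that hold class IIa deacetylases in the cytoplasm, 0 were called for HDAC3 loss or for IL-4 in either genotype (limma, medians from -0.11 to 0.05), with 0 to 1 at an unadjusted p under 0.05 in each comparison. The same held for 10 histone acetyltransferases, which add the mark that the members remove (medians from -0.02 to 0.06, with 1 to 2 at an unadjusted p under 0.05), and for 13 cell cycle genes (medians from -0.02 to 0.11, with 1 to 4). Over these comparisons 2.21% to 9.03% of all genes were called, so counts of 0 are near that share. An unadjusted p under 0.05 was reached by 12.4% to 19.5% of all genes. In the average over genotypes, added after the values were seen, Ep300, the acetyltransferase p300, fell by 0.35 on the log2 scale with IL-4 (limma adjusted p = 0.0123), a call lost in 3 of 26 alternatives. Only 1 of the 10 acetyltransferases was called there, beside 8.42% of all genes, and the list's median was 0.07. Of the complex lists, Chd3, Zmym3 and Tbl1xr1 fell there by 0.34, 0.38 and 0.41 (limma adjusted p = 0.00816, 0.00411 and 0.0180).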

How the data were processed

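RNA of 13 samples was measured on 1-colour Agilent whole-genome arrays, 1 per sample, with group and number read from the titles. A NuGEN kit amplified the RNA and the dye was Cy3, per the labels. The deposited files give linear intensity per spot, made with Agilent Feature Extraction 10.5.1.1 and with mm9 positions, per the file headers, while the submitters' processing notes list its version 9.53 beside limma. The authors' deposited table of linear intensity, whose normalization is not given in the sources used here, served as an alternative. Its array medians were 181 to 181.5.

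Control and outlier spots were left out, spots of a probe averaged, and log2 intensity centred on each array's 75th percentile. Of 41174 probes, 101 had no usable spot on some array. A probe was kept if at least 1 group had it well above background throughout (29059 probes), and the brightest kept probe stood for its gene (20894 genes). Gene names are the files', updated through RefSeq accessions for 25097 probes. Group means of all arrays were fitted together in limma 3.58.1 under R 4.3.3 (lmFit, eBayes, two-sided, Benjamini-Hochberg over all genes, called at an adjusted p under 0.05, 95% intervals), after tests on simulated data. One fit shares 1 spread per gene, and KO IL-4 arrays had the largest median SD (0.245, against 0.150 to 0.186 in the other groups).

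The members, lists and tests were chosen with earlier results of these data known. Named genes are the members, Hdac3, up to 4 called genes per list and comparison, and the 3 genes most like a called member. Marker lists covered macrophages and 7 other cell classes. Alternatives changed the normalization (quantile, normexp with an offset of 50 followed by quantile, median, the authors' values), the probe filter and rule, the variance model, the treatment of slides, the weights and the samples fitted. On each of the 4 slides a group always took the same position, and these cannot be told apart. The number of arrays and signal over background limit the precision.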

Additional observations from a re-analysis of the deposited data

Results flagged for a closer look

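Of 20 sets of 4 control vehicle values examined for a value far from the others (Dixon's test, 95% critical value 0.829), 3 held one, where chance gives about 1 in 20. Control vehicle array 3 read 0.52 on the brighter Hdac10 probe, against 0.23 to 0.25 on the other arrays of its group (gap over range 0.917). The same array read 0.071 on the second Hdac10 probe, against -0.39 to -0.32 (0.856). The probes lie close together on chromosome 15, in the same gene, so these readings are not separate cases. Their cause was not tested. Control vehicle array 4 had a mean negative control signal of 131.3, against 56.2 to 68.9 on the other 3 (0.832). It is the array with the smallest share of spots well above background, and on it the Hdac4 and Hdac6 probes were not well above background.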

How the results depend on the processing

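No member was called for HDAC3 loss in vehicle, for HDAC3 loss under IL-4, for IL-4 in control cells or for the interaction under any alternative run. For HDAC3 loss averaged over treatments, where 0 members were called, 1 (Hdac1) was called after quantile normalization, after normexp with quantile normalization, with the authors' deposited values and with array weights, and 0 in every fit without 1 array. For IL-4 in KO cells, where 0 were called, 1 (Hdac9) was called after normexp with quantile normalization (fold change -0.75, limma adjusted p = 0.0312), with trend and robust variance (0.0273), and without control vehicle array 4 and KO IL-4 array 15 together (-1.23, 0.0445). Fits without 1 array gave 0 to 1, with 1 only without KO IL-4 array 15 (-1.23, 0.0274), while without array 14 the fold change was -0.62 (0.222). For IL-4 averaged over genotypes, added after seeing the data, 1 member (Hdac9) became 0 with no filter on dim probes (limma adjusted p = 0.0548) and with the mean over probes, and fits without 1 array gave 0 to 1. The cause of these changes was not tested. No member's or Hdac3's value past the threshold reversed. Hdac3 loss under IL-4 missed the threshold when only the compared groups were fitted (limma adjusted p = 0.0800). No paired analysis was possible because array numbers, the only replicate labels, are not shared between groups. Slides, which hold up to 1 array of each group, were used as blocks and gave the within-slide differences: neither block changed a member's call, and the consensus correlation within slides was 0.0371. The filter on dim probes decides that Hdac8 and Hdac11 go untested.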
